A study of Mus musculus with 6 samples.

Results

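The 8 genes described here, Acta2, Tagln, Tagln2, Cnn1, Cnn2, Myl9, Ankrd1 and Srf, are a list of smooth-muscle and SRF target genes drawn up by name, and all 8 were found among the 21485 genes that every matrix of the series holds. They were measured by droplet single-cell RNA sequencing (10x 3′ v3.1) in 6 cultures of mouse muscle-derived stem/progenitor cells (MDSPCs), cells of skeletal muscle that adhere late when a muscle digest is moved from one collagen-coated flask to the next. There were 3 populations from young and 3 from old mice, called young 1 to 3 and old 1 to 3 by their labelled replicate numbers, and all were grown in the same proliferation medium (DMEM with fetal bovine serum, horse serum and chick embryo extract). The titles call them Y1-1, PtC5 and FT-QU (young 1 to 3) and O1-1, NA-f2 and NA-f3 (old 1 to 3). What these codes stand for is not given in the sources used here, and old 2 and old 3 share a prefix, so whether they are related cannot be told. Age in months, sex, strain and passage are not given in the sources used here either, so p-values measure the spread between these 6 cultures only.

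SRF (serum response factor) is a transcription factor that binds the CArG box, a core of A and T bases between CC and GG, in genes of the actin cytoskeleton and of muscle. It works with cofactors of the myocardin family, among them the MRTFs, which unpolymerised actin holds outside the nucleus, and with the ternary complex factors (TCFs), which growth-factor signalling activates on immediate early genes. Acta2, Tagln, Cnn1 and Myl9 are classic markers of smooth muscle, and Acta2, the α-actin of smooth muscle, is also made by myofibroblasts and by skeletal myoblasts before the striated actins Actc1 and Acta1 take its place.

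A library held 133974782 to 196481316 UMIs (unique molecular identifiers, counts of captured RNA molecules), and 61673 of 62849 barcodes were kept as cells, with a median of 13001 to 19951 UMIs each. Young 1 and old 1 were counted on a list of 21849 features and the other 4 populations on one of 32285, which is why the feature list is a term of the old against young test. Any pair of libraries shared 23 to 35 barcodes. The 7 myogenic markers summed to 190.1 to 3405 CPM (UMI counts of a gene scaled to the same total in every population), so the labelled cell type was carried by very different amounts of myogenic RNA. Markers of other lineages were unevenly present. The 9 fibro-adipogenic markers summed to 283 to 511 CPM, with Gsn at 149 to 317 CPM, Col3a1 at 13.3 to 132 CPM, and Smoc2, Cd34 and Ly6a reaching 103, 119 and 126 CPM in 1 population each (young 2, old 1 and old 2), while Pdgfra was at most 1.97, Dcn at most 1.49, Dpt at most 0.101 and Lum at most 0.00548 CPM. The 3 tenocyte markers summed to 125 to 304 CPM, almost all of it Scx, with Tnmd at most 0.0207 CPM. The 7 pericyte markers summed to 13.6 to 92.2 CPM, with Notch3 at 68.3 CPM in young 2 and 42.0 CPM in old 2, Cspg4 at 17.8 CPM in young 1, Rgs5 at 10.3 CPM in young 3, and Kcnj8 and Higd1b under 1 CPM in every population. The part of these genes' cells in the results below was not tested. Endothelial markers summed to at most 1.37 CPM and immune markers to at most 7.85 CPM. Scrublet called 815 doublets in old 3 and at most 2 in any other library, and no called cell was removed. The 9 smooth muscle markers that are not among the 8 genes summed to 23.0 to 96.7 CPM. Smtn was at 12.5 to 23.0 CPM, Synpo2 at 5.35 to 51.3 CPM and Casq2 at 0.991 to 31.0 CPM, whereas Actg2, Myocd and Pln were under 1 CPM in all 6 populations, and Myh11, the myosin heavy chain that defines smooth muscle, was between 0.115 and 1.11 CPM.

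The promoters that RefSeq gives for 7 of the 8 genes, all but Tagln (build GRCm38.p6, the 250 bases before each start) are shown where they hold a motif that bears on the family's name, with flanking bases. Capitals mark the CArG box, searched on both strands, and each sequence is written 5′ to 3′ on the strand of its gene. Srf itself held 2 boxes, 82 to 73 and 62 to 53 bases before its start, Myl9 held 1 box at 161 to 152 bases and Cnn2 held 1 at 56 to 47 bases.
Srf (chr17:46556200-46556259, minus strand): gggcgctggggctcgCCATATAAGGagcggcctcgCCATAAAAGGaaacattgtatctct
Myl9 (chr2:156775288-156775327, plus strand): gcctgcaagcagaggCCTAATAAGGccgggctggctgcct
Cnn2 (chr10:79988529-79988568, plus strand): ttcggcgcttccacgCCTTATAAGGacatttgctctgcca
Among all 32851 RefSeq promoters of the same length, 1.47% held a CArG box and 0.0183% held 2 or more. Acta2, Tagln2, Cnn1 and Ankrd1 held none in this window.

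Acta2 held a looser form, a CArG box with 1 of its core bases replaced by C or G, at 84 to 75 and at 34 to 25 bases before its RefSeq start. This form was searched for after the Acta2 sequence had been seen. It was present in 7.24% of the promoters, and 0.548% held 2 or more.
Acta2, first box (chr19:34255438-34255467, minus strand): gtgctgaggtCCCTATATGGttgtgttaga
Acta2, second box (chr19:34255388-34255417, minus strand): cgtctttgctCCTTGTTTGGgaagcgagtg
Myl9 held 1 box of this form as well. For Ankrd1, which is widely used as a readout of the YAP and TEAD regulators, the capitals mark the TEAD core CATTCC, which read on the gene's strand is GGAATG.
Ankrd1, first site (chr19:36120037-36120066, minus strand): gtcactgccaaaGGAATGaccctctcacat
Ankrd1, second site (chr19:36119950-36119979, minus strand): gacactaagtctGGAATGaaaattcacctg
That core stood in 12.6% of the promoters, and 1.02% held 2 or more, as did Ankrd1 and Tagln2. Acta2 held 1, at 146 to 141 bases before its start. The Acta2 and Ankrd1 windows lie inside the first exon of a longer GENCODE transcript. Acta2 also held 1 CAGCTG, a form of the E-box that myogenic factors bind, as 13% of promoters did. The matches describe the letters of these windows and no binding was measured.

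Acta2 varied most among the genes with an appreciable level. It is encoded at chr19:34241090-34255590 on the minus strand (9 exons in GENCODE M21). Over all cells of a population, its level was 169, 689.8 and 284 CPM in young 1, 2 and 3 and 25.8, 343 and 1477 CPM in old 1, 2 and 3. Old 1 was the lowest and old 3 the highest of all 6, a 57.3-fold span that lay wholly within the old group, so the young range sat inside the old one. In such sums, fewer cells that make a transcript and less of it per cell cannot be told apart, so cells were also counted one by one after thinning each to 5000 UMIs. At least 1 Acta2 UMI was then seen in 19.4%, 54.6% and 32.0% of young cells and in 3.19%, 36.2% and 69.9% of old cells, the same order as the CPM (29.5%, 76.1%, 47.8%, 5.65%, 58.9% and 81.3% without thinning). No cell type that should lack Acta2 was at hand for a background. Of barcodes under 1000 UMIs, 9.16%, 14.2% and 10.8% held an Acta2 UMI in young 1 to 3 and 10.1%, 5.45% and 16.7% in old 1 to 3, at 291, 452, 497, 296, 99.2 and 354 CPM. In old 1 these 69 barcodes were thus above the cells in both share and CPM, and the part of RNA outside cells in the old 1 value was not tested.

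Myl9, the regulatory light chain of smooth-muscle and non-muscle myosin (chr2:156775420-156781658, plus strand), was at 7.75, 4.83 and 7.29 CPM in the young populations and at 1.90, 5.09 and 54.4 CPM in the old ones. Old 3 alone was far above the rest, with a Myl9 UMI in 20.1% of thinned cells, against 0.686% to 3.46% in the other 5 populations. Tagln, the actin-binding protein transgelin or SM22α (chr9:45929619-45936058, minus strand), was at 26.0, 13.2 and 6.42 CPM in young 1 to 3 and at 5.15, 1.11 and 18.2 CPM in old 1 to 3. The groups of both genes overlapped. Tagln overlaps Pcsk7 on the opposite strand, and whether the counting used strand is not given in the sources used here. Tagln UMIs were found in few cells, 0.341% to 4.68% of those thinned.

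Cnn1, the calponin of differentiated smooth muscle (chr9:22099216-22109630, plus strand), was close to absent, with 5, 14 and 15 UMIs in young 1 to 3 and 12, 6 and 5 in old 1 to 3, at most 0.0794 CPM. Its relative Cnn2, a calponin of many non-muscle cells (chr10:79988584-79996062, plus strand), was at 119.9, 15.9 and 118 CPM in the young populations and at 119, 23.4 and 38.1 CPM in the old ones. For Cnn2, young 1, young 3 and old 1 formed a high trio and young 2, old 2 and old 3 a low one, so the trios crossed the age groups. Tagln2, a transgelin that is not restricted to muscle (chr1:172500047-172507380, plus strand), was the most even of the abundant genes at 448, 633 and 788 CPM in young 1 to 3 and 523, 449 and 407 CPM in old 1 to 3. It was seen in 71.1% to 94.8% of thinned cells.

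Ankrd1, a stretch-responsive ankyrin-repeat cofactor also called CARP (chr19:36111961-36120099, minus strand), was at 478, 207 and 130.0 CPM in young 1 to 3 and at 625, 679 and 512 CPM in old 1 to 3. All 3 old populations stood above all 3 young ones, and Ankrd1 was the one gene of the 8 whose groups did not overlap. Non-overlap in either direction was found for 5.93% of the 14512 genes tested. Srf (chr17:46548329-46556175, minus strand) was low and steady at 7.39, 7.94 and 10.7 CPM in the young populations and 9.37, 5.75 and 10.4 CPM in the old ones, with a 1.87-fold span over all 6.

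**Figure D1:**
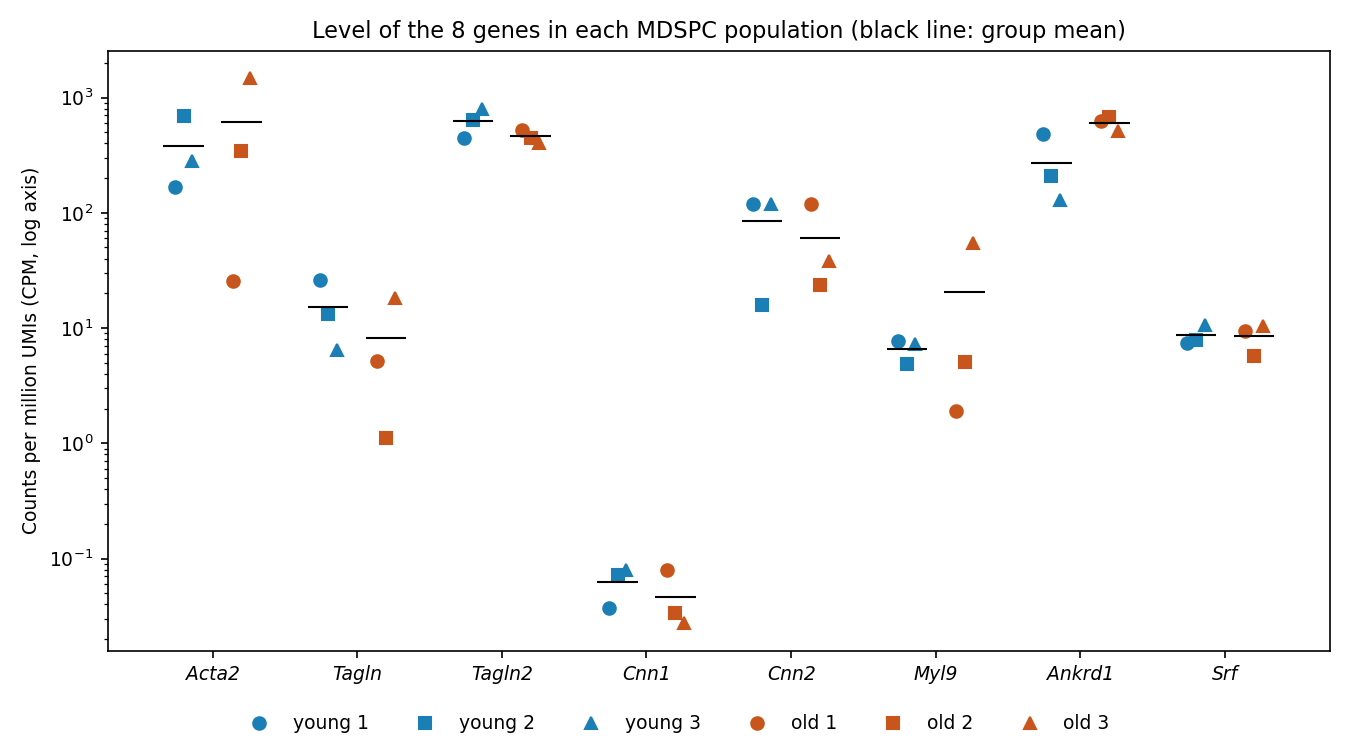
Level of each gene over all kept cells of a population, in CPM on a log axis, with 1 point per population (blue young, orange old) and a black line at each group mean. Acta2 spans 25.8 to 1477 CPM within the old group, Ankrd1 is the one gene with separate groups, and Cnn1 stays at or below 0.0794 CPM.

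Old and young populations were compared first, since age is the contrast in the labels. In edgeR's quasi-likelihood F test, with p-values adjusted over the 14512 genes tested, 0 of the 8 genes passed, and 1 gene in all did (0.00689%). At an unadjusted p under 0.05, 1 of the 8 and 512 genes in all (3.53%) were found, and DESeq2 also called 0 of the 8. Ankrd1 was the 1 gene: its log2 fold change, old over young, was 1.26 (SE 0.49), with an unadjusted p of 0.0433 and an adjusted p of 1.00. The value was 0.84 to 1.86 when 1 population was left out (0.84 without young 3, 1.86 without young 1 or old 1), and none of the 8 had an unadjusted p under 0.05 with no feature list term, without young 3 or without old 2. Young 1 and old 1 are the only populations of the shorter list, so without either the feature list term fits the other exactly. Both these fits thus rest on the 4 populations of the longer list. Tagln2 had a log2 fold change of -0.50 (SE 0.22), Cnn2 of -0.80 (SE 0.71) and Srf of -0.09 (SE 0.34). The SE of Acta2 (1.20 around -0.18), Tagln (1.21 around -0.78) and Myl9 (1.56 around 1.14) was as large as or larger than the difference, so changes of several-fold would not have been detectable with 3 populations a group. The direction for Acta2 turned with the model and with the samples used: it was 0.73 with no feature list term in the same 6 populations and 0.99 in the 4 populations of the longer list alone. The Myl9 value rested on old 3, without which it was -1.10. The median log2 fold change of the 8 genes was -0.34, beside -0.01 over all genes tested.

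None of the 8 tested cofactors, 22 actin cytoskeleton targets of SRF and MRTF, 10 immediate early targets of SRF and TCF or 8 targets of YAP and TEAD passed the old against young test in edgeR. At an unadjusted p under 0.05 there were 0, 2, 0 and 1 genes in these lists, the last being Ankrd1 again, beside 3.53% of all genes. Their median log2 fold changes were -0.25, -0.10, 0.30 and -0.13. Myocd, the cofactor myocardin that drives the smooth-muscle programme, was at most 0.27 CPM in any population, while its relatives Mrtfa and Mrtfb were present in every population. By mean level the leading cofactors were Fhl2, Elk3, Mrtfb and Mrtfa, with log2 fold changes of -0.53, -0.24, -0.27 and -0.14.

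The relation to myogenic level was examined between populations and within them. Myogenic level, the mean log2(CPM + 1) of Pax7, Myf5, Myod1, Myog and Cdh15, was 3.53, 6.88 and 3.74 in young 1 to 3 and 3.88, 6.65 and 7.04 in old 1 to 3. The values fell into 2 separate clusters of 3 populations, 3.53 to 3.88 and 6.65 to 7.04, each with young and old members, so no correlation across the 6 was computed. In order of rising myogenic level (young 1, young 3, old 1, old 2, young 2, old 3), Acta2 was at 169, 284, 25.8, 343, 689.8 and 1477 CPM. Cnn2 was at 119.9, 118, 119, 23.4, 15.9 and 38.1 CPM. Ankrd1 was at 478, 130.0, 625, 679, 207 and 512 CPM, Tagln2 at 448, 788, 523, 449, 633 and 407 CPM, and Myl9 at 7.75, 7.29, 1.90, 5.09, 4.83 and 54.4 CPM in that order. Tagln and Srf, at 26.0, 6.42, 5.15, 1.11, 13.2 and 18.2 CPM and at 7.39, 10.7, 9.37, 5.75, 7.94 and 10.4 CPM, likewise had high and low values at either end. The place of old 1 depends on the index, which averages in Myf5, at 0.00748 CPM in young 1, and Pax7, at 0.0265 CPM in young 3. Myog alone was at 28.4, 34.8, 6.25, 177, 344 and 935 CPM in the same order of populations, lowest in old 1. Ordered by Myog, a choice made after the values were seen, Acta2 was higher at each step, and none of the other genes was. These orders describe 6 cultures, and no test was made.

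Within a population, cells with and without Myog were compared, so that each population served as its own control. Myog encodes myogenin, the factor that commits myoblasts to differentiate, and cells with 1 or more Myog UMIs after thinning to 5000 UMIs made up 3.62%, 20.4% and 5.15% of young 1 to 3 and 0.737%, 14.4% and 46.0% of old 1 to 3. Old 1 had 73 such cells. Of 12387 genes tested by edgeR with the population as a block, 30% passed, 13.4% being higher and 16.6% lower in Myog-positive cells, and 12% were higher and 21% lower in all 6 populations. Of the 8 genes, 7 could be tested, and 3 rose (Acta2, Myl9, Ankrd1), 1 fell (Tagln2) and 3 did not pass (Tagln, Srf, Cnn2). Cnn1 was under the count filter. The median log2 fold change of the 7 was 0.74, beside -0.06 over all genes tested.

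Acta2 showed the largest difference of the 7. In Myog-positive cells it was at 1675, 2346 and 1206 CPM in young 1 to 3 and at 1581, 1228 and 2778 CPM in old 1 to 3. In Myog-negative cells of the same cultures it was at 127, 297 and 276 CPM and at 15.2, 199.6 and 451 CPM. The Myog-positive level was higher in 6 of 6 populations, as for 12% of all genes tested, with ratios of 13.2, 7.91, 4.37, 104, 6.15 and 6.16. Old 1 was the lowest of the negative cells by a wide margin, and its ratio was the one far from the others. The log2 fold change was 3.34 (SE 0.68, edgeR adjusted p = 0.0187). The size of the difference was 2.86 to 3.62 when 1 population was left out, but the call was lost without young 1, young 2, old 2 or old 3 (adjusted p 0.0531 to 0.0578, within 1.39e-07 to 0.0578 over all alternatives). In cells without a UMI of the proliferation genes Mki67 or Top2a, an alternative added after seeing the data, it was 3.39 (adjusted p = 0.0124). Old 1 had 47 Myog-positive cells there, under the planned minimum of 50.

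Myl9 moved with Acta2. It was at 34.6, 16.9, 36.5, 16.4, 11.5 and 75.2 CPM in Myog-positive cells of young 1 to 3 and old 1 to 3, and at 7.27, 1.98, 7.04, 1.59, 3.73 and 39.5 CPM in the negative cells. It was higher in 6 of 6, by 2.08 on the log2 scale (SE 0.31, edgeR adjusted p = 0.00317), and the old 1 value rested on 6 UMIs. Its smallest ratio, 1.90, was in old 3, where the negative cells already stood at 39.5 CPM. The difference between the age groups in this log2 change, old minus young, was -1.12 (SE 0.42, unadjusted p = 0.0282, adjusted p = 1.00 in edgeR). That interaction test called 0 genes in all, and 2.49% had an unadjusted p under 0.05. Of the 7 genes it could test, Myl9 was the 1 with an unadjusted p under 0.05, and Acta2 was at 0.87 (SE 1.40).

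Ankrd1 rose less and less evenly. It was at 1209, 264, 123, 1685, 1089 and 549.5 CPM in Myog-positive cells of young 1 to 3 and old 1 to 3, and at 468, 190.1, 127, 619, 607 and 489.9 CPM in the negative ones. The ratio was between 1.79 and 2.72 in young 1, old 1 and old 2, and between 0.971 and 1.39 in the other 3, with young 3 the 1 population not higher. The log2 fold change was 0.74 (SE 0.21, edgeR adjusted p = 0.0367). The call was lost with library totals for scaling (0.71, adjusted p = 0.0631), with no low-count filter (adjusted p = 0.0716) and without young 1, young 2, old 1 or old 2 (adjusted p 0.0695 to 0.111), in a range of 0.0011 to 0.111 over all alternatives.

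Tagln2 went the other way. Its level in Myog-positive cells was 148, 360.3, 694, 274, 156 and 235 CPM in young 1 to 3 and old 1 to 3, against 437, 681, 773, 511, 487 and 503 CPM in the negative cells. It was lower in 6 of 6 populations, least so in young 3 at a ratio of 0.898, and the log2 fold change was -1.02 (SE 0.19, edgeR adjusted p = 0.00839). Tagln, the smooth-muscle member of the same family, did not pass: its log2 fold change was 1.52 (SE 0.64, edgeR adjusted p = 0.133), with ratios from 11.6 in young 2 down to 0.620 in young 1. In old 1 and old 2 its Myog-positive level rested on 6 and 7 UMIs. The Tagln call was gained under DESeq2 (adjusted p = 0.0137) and without young 1 (2.00, adjusted p = 0.043), in a range of 0.0137 to 0.294.

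Srf had a log2 fold change of 0.41 (SE 0.15, edgeR adjusted p = 0.0560) and was higher in 5 of 6 populations. Its Myog-positive level rested on 6 UMIs in old 1 (ratio 1.73) and on 11 in young 1 (ratio 1.02). Srf passed with 2 or more Myog UMIs as the limit (0.57), in cells without Mki67 or Top2a UMIs (0.48), without young 1 (0.46) and without young 3 (0.52), with adjusted p from 0.0153 to 0.22 over all alternatives. Old 1 had 37 Myog-positive cells at the higher Myog limit and 47 among cells without Mki67 or Top2a UMIs, both under the planned minimum of 50. Cnn2 had a log2 fold change of -0.27 (SE 0.30, edgeR adjusted p = 0.553) and was lower in 5 of 6. Young 2 was the exception, at 26.9 CPM in positive and 13.3 CPM in negative cells. Without young 2, Cnn2 was lower by test (-0.59, adjusted p = 0.0154, in a range of 0.0154 to 0.89). Among the 7 genes with a searched promoter, Myl9 and Cnn2 held a full CArG box besides Srf. Of these 3, Myl9 passed the Myog test, beside 30% of all genes tested. Acta2 and Ankrd1, which were higher, and Tagln2, which was lower, passed and held no full box in the window. Cnn1, also without one, could not be tested. Acta2 held the looser form of the box, and the promoter of Tagln was not searched. Whether the box bears on the Myog difference was not tested.

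**Figure D2:**
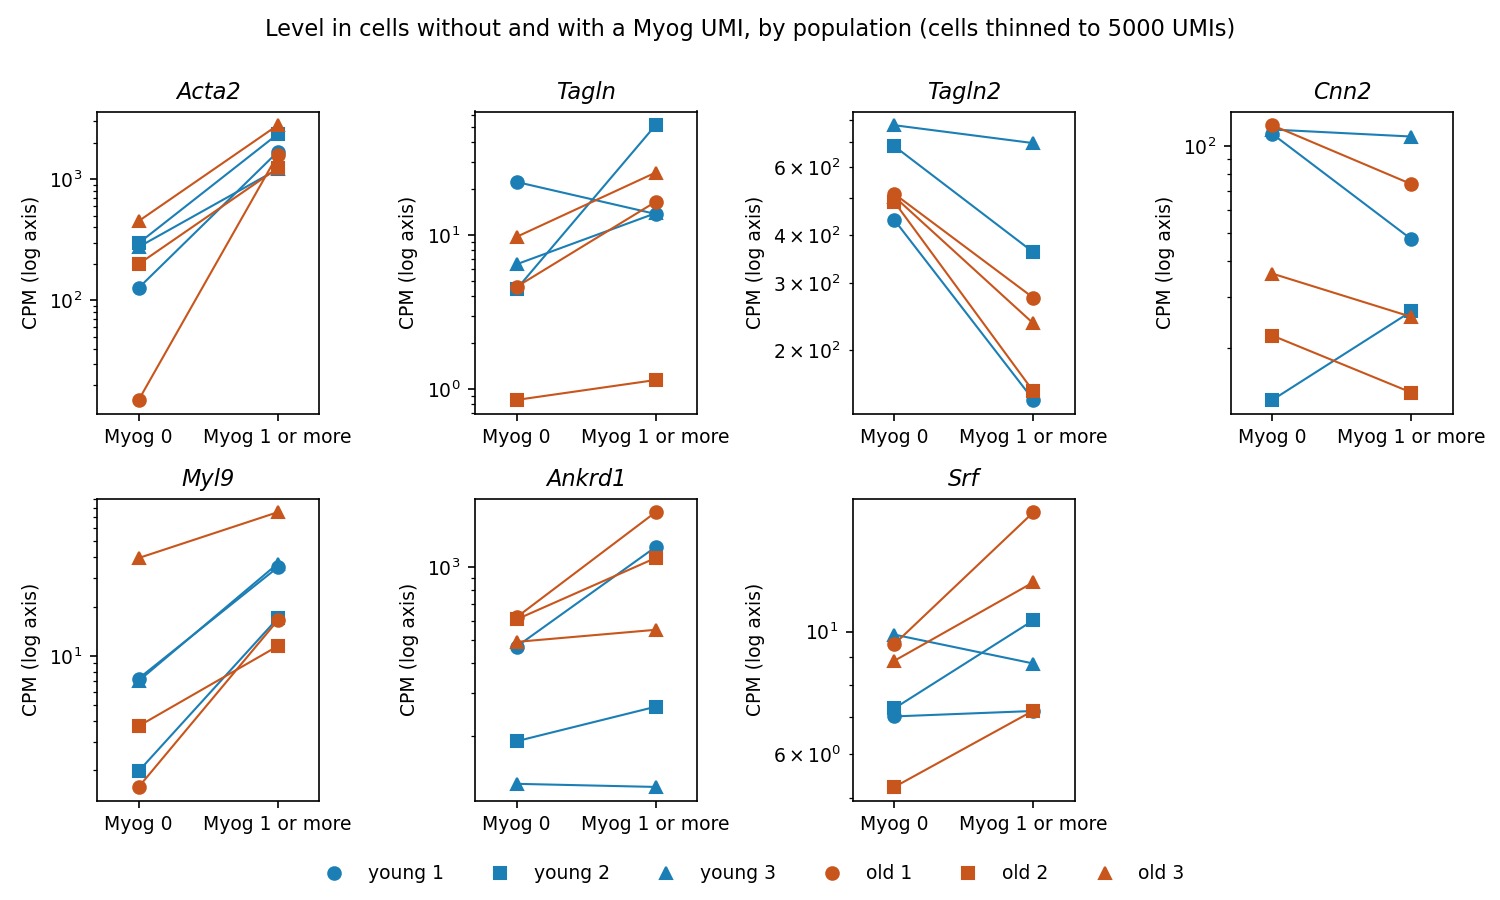
Level of 7 genes in CPM (log axes with separate ranges) in cells with 0 and with 1 or more Myog UMIs, each line joining both classes of 1 population (blue young, orange old). Acta2 and Myl9 rise and Tagln2 falls in 6 of 6 populations, and the Acta2 line of old 1 climbs from 15.2 to 1581 CPM.

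Differentiation was then read in steps instead of by 1 gene. Cells were binned by their UMIs of 13 genes of muscle differentiation, among them Myog, the myomaker Mymk and the early myosin Myh3, at 0, 1-2, 3-9 and 10 or more UMIs. None of the 8 genes is in that list. The bins are described without a test. Acta2 was higher at each step in 6 of 6 populations, going from 12.0 to 204 CPM in cells with 0 UMIs to 1954 to 3509 CPM in cells with 10 or more, which is 15.5-fold to 19.5-fold in 5 populations and 222-fold in old 1, whose last bin had 42 cells. In young 1 the steps were 103, 152, 731 and 2012 CPM, and in old 3 they were 204, 276, 568 and 3153 CPM. Acta2 was thus already at 444 to 1379 CPM in cells with 3-9 UMIs, where the skeletal actin Acta1 was at 9.40 to 62.3 CPM, as the plot of level against differentiation UMIs shows.

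Cells with 10 or more differentiation UMIs were 3.28%, 14.4% and 1.35% of young 1 to 3 and 0.424%, 8.88% and 41.6% of old 1 to 3. They held 36.1%, 66.3%, 14.6%, 42.3%, 49.98% and 86.1% of the Acta2 UMIs in the same order. For the striated actins Acta1 and Actc1, named because they replace Acta2 in skeletal muscle and chosen after their values were seen, these cells held 95.7% to 99.2%. In cells with 0 differentiation UMIs, Acta2 outnumbered Acta1 by 6.78 to 31.7 UMIs to 1 in 5 populations and by 433 to 1 in young 3, which had 20 Acta1 UMIs there, whereas in cells with 10 or more UMIs the ratio was 0.396 to 1.33. The proportion of Acta2 to Acta1 thus differed between the least and the most differentiated cells of each library. The actins have nearly identical coding sequences, and how the counting treated reads that match several of them is not given in the sources used here.

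Myl9 was 4.19-fold to 27.4-fold higher in cells with 10 or more UMIs than in cells with 0, and higher at each step in 5 of 6 populations. The upper end was young 2, with 20 Myl9 UMIs in its cells with 0 differentiation UMIs. In old 1 the later bins held only 10, 3 and 6 Myl9 UMIs. Ankrd1 was also higher at each step in 5 of 6, but its range was 1.01-fold to 3.79-fold. The lower end was young 3, where Ankrd1 stayed at 126 to 127 CPM in all 4 bins, and the upper end was old 1, where it went from 608 to 2305 CPM. Tagln2 was lower at each step in 5 of 6, ending at 0.131 to 0.422 of its level in cells with 0 UMIs. Cnn2 was lower at the end than at the start in 5 of 6 and higher in young 2, at 10.5 and 31.3 CPM. Tagln was higher at the end in 5 of 6, with a median ratio of 4.19, and lower in young 1, at a ratio of 0.515. Its last bin held only 17 UMIs in young 1, 6 in old 1 and 9 in old 2.

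**Figure D3:**
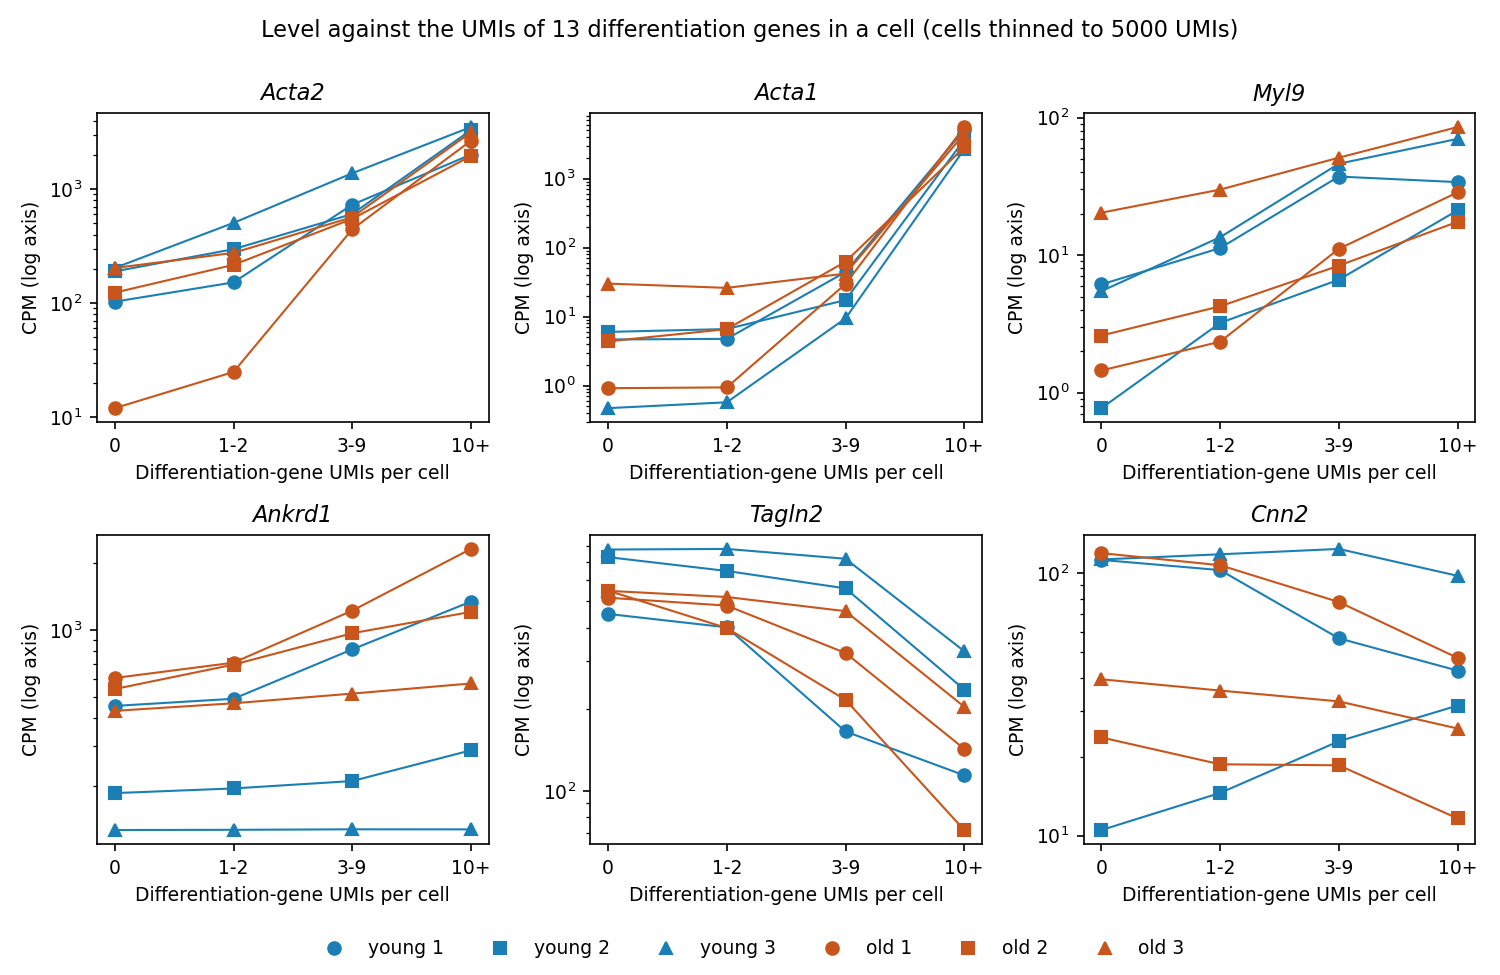
Level in CPM (log axes with separate ranges) of 5 of the genes and of Acta1 in cells binned by their UMIs of 13 differentiation genes, 1 line per population (blue young, orange old). Acta2 is higher at every step in all 6 populations, most of the Acta1 difference lies in the last step, Tagln2 is lowest in the last bin, and Ankrd1 stays at 126 to 127 CPM in young 3.

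Tagln marked a small set of cells. Cells with 3 or more Tagln UMIs numbered 102, 80 and 34 in young 1 to 3 and 20, 2 and 90 in old 1 to 3. Of them, 0%, 82.5% and 14.7% were Myog-positive in young 1 to 3 and 5.00%, 0% and 72.2% in old 1 to 3. Among cells with 0 Tagln UMIs, the Myog-positive share was 3.60%, 19.0% and 5.05% in young 1 to 3 and 0.702%, 14.3% and 44.9% in old 1 to 3. The Myog-positive cells of the Tagln set numbered 0 of 102, 66 of 80 and 5 of 34 in young 1 to 3 and 1 of 20, 0 of 2 and 65 of 90 in old 1 to 3, so only young 2 and old 3 had more than a few. Acta2 in these cells was at 2006, 7795 and 5147 CPM in young 1 to 3 and 1560, 1000 and 6840 CPM in old 1 to 3, against 146, 590 and 284 and 19.9, 341 and 1373 CPM in cells with 0 Tagln UMIs. In young 1 the set had little striated actin (Acta1 at 33.3 CPM, against 166 CPM in cells without Tagln), but had more Myl9 (62.7 against 7.28 CPM) and Cnn2 (253 against 104 CPM). Tagln2 (847 against 416 CPM) and Ankrd1 (1061 against 479 CPM) were higher in that set too. Des (5.88 against 60.3 CPM) and Col3a1 (21.6 against 42.3 CPM) were lower. Cspg4 (19.6 against 16.7 CPM) and Pdgfrb (7.84 against 4.06 CPM) rested on 10 and 4 UMIs. Cnn1, Myh11 and Rgs5 were at 0 CPM, against 0.0495, 0.272 and 0.817 CPM. Myl9 and Cnn2 were also higher in the sets of young 2, young 3, old 1 and old 3, and both were at 0 CPM in that of old 2. Unlike in young 1, Acta1 was higher in the set of young 3 and old 1 (859 against 29.1 CPM and 260.0 against 19.8 CPM), as it was in young 2 (8943 against 379.9 CPM) and old 3 (6673 against 1702 CPM). In old 2 it was 0 against 259 CPM. These values come from cells chosen by Tagln, are given without a test, and those of old 2 rest on 2 cells.

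Cell by cell, the genes did not move as one block. Acta2 correlated most with Myl9 (mean Pearson r over 6 populations 0.33, from 0.27 to 0.39) and with Tagln (0.30, from 0.11 to 0.39). Its r with Tagln2 was negative in 6 of 6 (mean -0.25). That r was -0.47, -0.34 and -0.47 in young 2, old 2 and old 3, but only -0.10, -0.01 and -0.09 in young 1, young 3 and old 1. Acta2 with Ankrd1 had a mean r of 0.16 and Tagln2 with Cnn2 of 0.20. Every pair with Srf had a mean r of at most 0.06, with Srf UMIs in 10.5% to 16.7% of the cells used, which were not thinned. These r describe cells of 1 library, scaled to the same total per cell but not brought to a fixed depth, and carry no p. The part of depth in them was not tested.

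The genes most like each one were sought by the same r among 7204 genes with a UMI in at least 10% of the cells of every population. Acta2, Tagln and Myl9 were under that limit in old 1 (5.65%, 1.39% and 1.94% without thinning) and so could not be listed. The tropomyosins Tpm2 (0.50) and Tpm1 (0.43), which line actin filaments, and the bHLH factor Hes6 (0.41) were most like Acta2. Among the genes compared, Hes6, Myod1 and Tpm2 (each 0.18) led for Myl9, and Tpm2, Tmsb4x and Tpm1 (0.13 to 0.14) for Tagln. Both had a higher mean r with Acta2 (0.33 for Myl9 and 0.30 for Tagln), and Tagln with Myl9 was at 0.15. For Tagln2 they were Ptma (0.56), the cytoplasmic actin Actg1 (0.48) and Ranbp1 (0.46), and for Cnn2 they were Actg1 (0.28), the actin-severing Dstn (0.22) and Tpm4 (0.21). Ankrd1 stood with Thbs1 (0.33), Cited2 (0.31) and Gadd45g (0.30).

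The wider SRF lists were read from the same comparison of Myog-positive with Myog-negative cells, in which 13.4% of all genes tested rose and 16.6% fell (30% in all). Of 21 actin cytoskeleton targets tested, 7 rose and 7 fell, and their median log2 fold change was -0.18, beside -0.06 over all genes. By mean level the leading ones were the cytoplasmic actins Actb (-0.48, SE 0.13) and Actg1 (-0.42, SE 0.09), the actin-severing cofilin Cfl1 (-0.45, SE 0.10), which all fell, and Tpm1 (1.34, SE 0.24), which rose. The striated actins Acta1 (7.63, SE 0.97) and Actc1 (8.26, SE 0.84), named after their values were seen, rose most. Tpm2 (2.22) and Tpm4 (-0.83), also named afterwards, passed in opposite directions although both are tropomyosins.

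Of 7 cofactors tested, 2 fell, Elk3 (-0.74, SE 0.09) and Mrtfa (-0.33, SE 0.10), and 0 rose, a share near that of all genes. Of 10 immediate early targets, Egr1 (0.80, SE 0.21) and Junb (0.68, SE 0.10) rose and Ier2 (-0.60, SE 0.14) and Mcl1 (-0.37, SE 0.09) fell, with a median of 0.07. Of 8 YAP and TEAD targets, 2 rose and 3 fell. Among them by mean level, Ankrd1 rose, the receptor kinase Axl (-0.62, SE 0.11) and Crim1 (-1.10, SE 0.14) fell, and Ccn1 was at -0.09 (SE 0.11). The list of smooth muscle markers had 5 genes above the count filter, of which 4 rose: Smtn (1.21), Synpo2 (2.06), Casq2 (6.42) and Lmod1 (2.10). Casq2 and Synpo2 are also made in striated muscle, and Lmod1 averaged under 1 CPM.

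**Figure D4:**
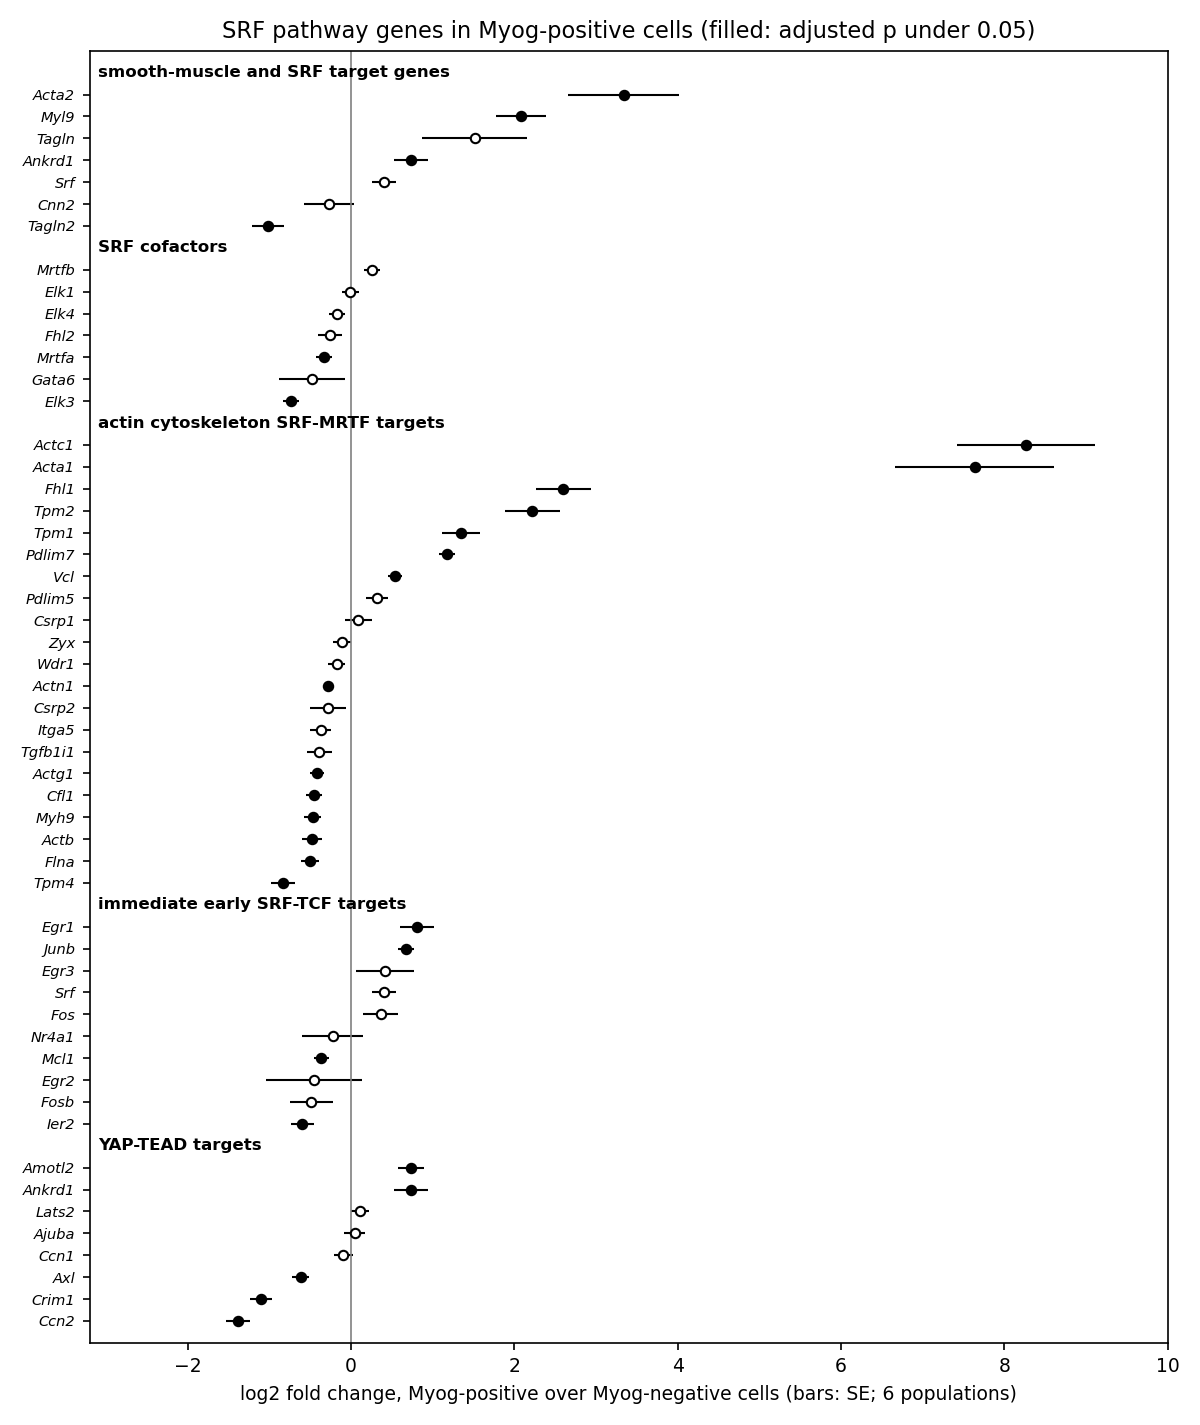
Log2 fold change of Myog-positive over Myog-negative cells for the genes tested in 5 lists, with SE bars over 6 populations (filled points, edgeR adjusted p under 0.05). Each target list has filled points on both sides of 0, with Acta1 and Actc1 farthest to the right at 7.63 and 8.26.

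The last comparison set cells with a UMI of Mki67 or Top2a, genes of dividing cells, against cells with neither. Such cells were 25.5% to 64.2% of a population. Of 12318 genes tested by edgeR, 45.5% passed, 19.1% being higher and 26.4% lower in them, and 24.3% were higher and 16% lower in all 6 populations. Of the 7 of the 8 genes that could be tested, 1 rose and 2 fell. This split depended on scaling: with library totals, 3164 genes were higher and 2158 lower, against 2351 and 3249 in the main result. Acta2 fell in 6 of 6 populations, by 1.17 on the log2 scale (SE 0.23, adjusted p = 0.00958). It was at 86.7, 299.8, 291, 14.6, 210.2 and 1150 CPM in proliferating cells of young 1 to 3 and old 1 to 3, and at 237, 970.2, 376, 48.4, 394 and 1783 CPM in the others.

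Tagln2 rose in 6 of 6, by 0.34 (SE 0.08, edgeR adjusted p = 0.0141). Ankrd1 had a change of -0.46 (SE 0.15, edgeR adjusted p = 0.0459), was lower in 5 of 6, and lost the call with library totals (-0.39, adjusted p = 0.0672) and without each of 5 populations, all but young 3 (adjusted p 0.0696 to 0.122, in a range of 0.000102 to 0.122). Tagln (-0.71, SE 0.36), Myl9 (-0.41, SE 0.30), Srf (-0.02, SE 0.07) and Cnn2 (0.00, SE 0.15) did not pass. Acta2 and Tagln2 thus had opposite directions in this comparison too. Of the actin cytoskeleton targets, 1 of 21 rose and 9 fell, and of the immediate early targets 4 of 10 fell and 0 rose, so that the share called in either list was near the 45.5% of all genes. Myog itself was lower in proliferating cells (-2.30, SE 0.33), and what part it has in the Acta2 difference was not tested.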

How the data were processed

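Per the submitters' processing notes, Cell Ranger 7.2.0 and Seurat 5.134 were used with the mm10 build, while per the file headers the matrices of young 1 and old 1 came from Cell Ranger 7.0.0. The deposited matrices hold raw UMI counts per gene and barcode. Barcodes with at least 1000 UMIs, 500 genes and at most 15% mitochondrial counts were kept (61673 cells). Scrublet's own limit called 815 cells in old 3 and 0 to 2 in the other 5 libraries, so it was not used and no called cells, those of old 3 included, were removed in the main result; an alternative left out the highest scores in every library. Counts were summed per population, or per class of cells thinned to 5000 UMIs (539 young and 829 old shallower cells left out), and tested with edgeR 4.0.16 (R 4.3.3, TMM, filterByExpr, robust quasi-likelihood, Benjamini-Hochberg over all genes, threshold 0.05). Terms were the feature list (old against young) or the population (classes of cells). Scripts were tested on simulated data. DESeq2 1.42.0, other scalings, filters and class limits, and leaving out each population were alternatives. All 8 genes are named; of other lists, values are given for genes that passed or, where none or more than 4 passed, for the 4 with the highest mean CPM. Genes, lists and tests were chosen with earlier results of these data known. Precision is limited by 3 populations a group. Positions are from GENCODE M21 and promoters from RefSeq.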

Additional observations from a re-analysis of the deposited data

Results flagged for a closer look

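The Acta2 difference between Myog-positive and Myog-negative cells was 6.7 on the log2 scale in old 1, the highest of the 6 populations and far from the other 5. Old 1 had 73 Myog-positive cells and the lowest Acta2 level in its Myog-negative cells, 15.2 CPM. Without old 1 the fitted log2 fold change was 2.86 (edgeR adjusted p = 0.00143, in a range of 1.39e-07 to 0.0578 over all alternatives).

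The Tagln difference between proliferating and other cells was -2.39 on the log2 scale in young 2, the lowest of the 6 populations. Tagln was at 3.90 CPM in proliferating and 20.4 CPM in other cells of young 2, the population in which Tagln was also 11.6-fold higher in Myog-positive cells. A sample this far from the others is found by chance in about 1 of 20 groups tested.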

How the results depend on the processing

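The count of genes called between old and young was 1, and it was 219 under DESeq2, 2 with library totals, 0 with no feature list term, 0 in the populations of the longer feature list alone and 0 to 3 when 1 population was left out (0 without young 1 or old 1, 3 without young 3). None of these settings called one of the 8 genes. Without young 1 or old 1, the feature list term fits the other of these exactly, so both fits rest on the longer list alone. Replicate numbers did not pair the samples (correlations of deviations 0.377, 0.223 and -0.081 between same-numbered samples, with young 2 closest to old 3), and a fit with the replicate block called 1 gene and 0 of the 8, with 0 of the 8 at an unadjusted p under 0.05. In the Myog comparison, 2 to 5 of the 8 genes were called when 1 population was left out, 2 of them without old 2, against 4 with all. Over all genes, 2556 to 3856 were called in these fits, with 2556 without old 2, against 3721 with all populations. No old against young difference of the 8 genes passed, and these changed sign: Acta2 (0.73 with no feature list term, 0.99 in the longer list alone, -1.53 to 0.99 when 1 population was left out), Tagln (0.087 in the longer list alone, -2.97 to 0.087), Cnn2 (-1.24 to 0.37), Myl9 (-1.10 to 2.43) and Srf (-0.42 to 0.15). In the proliferation comparison, Cnn2 changed sign under DESeq2 (-0.014), with no low-count filter (-0.0099), without the highest Scrublet scores (-0.0016) and when 1 population was left out (-0.086 to 0.12), and Srf with library totals (0.043), without thinning (0.024) and when 1 population was left out (-0.046 to 0.023). The cause of these shifts was not tested, beyond fewer samples in the fit. Correlations with myogenic level were not run, since the populations fell into 2 clusters.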
